A study of Mus musculus with 6 samples.

Results

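The Iroquois homeobox genes Irx1 to Irx6 lie in 2 clusters of the mouse genome, and DNA methylation was described here across both, with the genes and all the sequence between them. The sequence was chosen by position alone, as every tile from 50 kb before the first gene of a cluster to 50 kb after the last (RefSeq positions on GRCm38.p6, the assembly that mm10 names). This gave 2164 of the 1954255 tiles of 1 kb in the data. The cluster on chromosome 13 holds Irx1 (71958232 to 71963723), Irx2 (72624430 to 72634196) and Irx4 (73259589 to 73269622), spans 1.31 Mb and had 1232 tiles. The cluster on chromosome 8 holds Irx3 (91798511 to 91801654), Irx5 (92357796 to 92361456) and Irx6 (92674289 to 92680956), spans 882 kb and had 932 tiles. No other protein-coding gene lies in either window, since the 13 further genes on chromosome 13 are 8 long noncoding RNAs and 5 pseudogenes, and the 11 on chromosome 8 are 9 long noncoding RNAs, 1 pseudogene and 1 small nuclear RNA.

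The samples were lung endothelial cells, the cells that line blood vessels, taken by flow sorting from mice labelled as Dnmt3a knockout (KO, 3 samples) and from wild-type mice (WT, 3 samples). The labels give the tissue, the cell type and the genotype of each sample, and do not state how or in which cells the gene was deleted, nor the strain, sex or age of the mice. Nor do they state that replicates are different animals: a p-value here reflects how far these 3 samples per group scatter, and that scatter could be technical. The measurement was the methylation level of a tile, in percent, from tagmentation-based whole-genome bisulfite sequencing, without read counts, so the depth behind a level is unknown. Errors are standard deviations with n = 3 in each group. In DNA from many cells, a lower level in every cell and a larger share of cells with a low level cannot be told apart.

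Irx genes encode transcription factors of the TALE class of homeodomain proteins, which pattern the heart, limbs, lung and nervous system of the embryo. Genes of this kind often sit in DNA methylation canyons (also called valleys), stretches of several kilobases with many CpGs and almost no methylation, and their enhancers can lie far away in the gene-poor sequence of the cluster. Dnmt3a is a methyltransferase that places new methyl groups on CpGs, and its loss is known in blood stem cells to change methylation at the borders of canyons. The comparison asked where the clusters depend on Dnmt3a: in the canyon cores, at their edges, or in the sequence between the genes.

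The sequences upstream of 6 transcription starts are printed to show the contrast that runs through the results, between starts inside the canyons and starts in the sequence between Irx3 and Irx5. Each is the 250 bases before the start, 5′ to 3′ on the strand of the gene, from RefSeq (GRCm38.p6), with every CpG in capitals. Irx2 (chr13:72628570-72628819, plus strand, 19 CpGs), Irx4 (chr13:73260247-73260496, plus strand, 22 CpGs), Irx3 (chr8:91801655-91801904, minus strand, 13 CpGs) and Crnde (chr8:92356121-92356370, minus strand, 17 CpGs), a long noncoding RNA that starts beside Irx5, lie in canyons. Gm36670 (chr8:91991850-91992099, minus strand, 4 CpGs) and Gm36843 (chr8:91997182-91997431, plus strand, 9 CpGs) are long noncoding RNAs that start between Irx3 and Irx5, and both were chosen after their values were seen. Of the 31396 promoters of the RefSeq table on chromosomes 1 to 19, 92.4% hold at least 1 CpG in this window, with a median of 6 and an interquartile range of 2 to 16.
Irx2: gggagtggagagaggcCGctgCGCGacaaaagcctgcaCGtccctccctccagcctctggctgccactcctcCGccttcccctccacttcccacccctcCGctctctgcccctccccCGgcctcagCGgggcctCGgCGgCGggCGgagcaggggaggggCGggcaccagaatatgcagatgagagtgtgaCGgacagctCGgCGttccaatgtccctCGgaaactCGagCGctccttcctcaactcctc
Irx4: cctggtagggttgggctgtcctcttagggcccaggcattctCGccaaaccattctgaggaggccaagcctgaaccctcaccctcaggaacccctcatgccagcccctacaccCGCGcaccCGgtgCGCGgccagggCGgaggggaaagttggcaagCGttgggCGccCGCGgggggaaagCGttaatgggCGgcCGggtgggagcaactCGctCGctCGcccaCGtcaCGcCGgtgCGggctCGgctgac
Irx3: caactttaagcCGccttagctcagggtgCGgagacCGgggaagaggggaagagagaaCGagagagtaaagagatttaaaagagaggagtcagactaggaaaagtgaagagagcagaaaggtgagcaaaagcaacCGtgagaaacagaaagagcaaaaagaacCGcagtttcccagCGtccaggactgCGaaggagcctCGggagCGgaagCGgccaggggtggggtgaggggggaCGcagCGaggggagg
Crnde: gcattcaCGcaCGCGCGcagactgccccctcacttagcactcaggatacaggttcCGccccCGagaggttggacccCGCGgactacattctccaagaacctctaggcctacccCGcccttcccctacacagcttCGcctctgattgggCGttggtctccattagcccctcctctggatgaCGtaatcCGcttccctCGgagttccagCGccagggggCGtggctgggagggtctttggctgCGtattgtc
Gm36670: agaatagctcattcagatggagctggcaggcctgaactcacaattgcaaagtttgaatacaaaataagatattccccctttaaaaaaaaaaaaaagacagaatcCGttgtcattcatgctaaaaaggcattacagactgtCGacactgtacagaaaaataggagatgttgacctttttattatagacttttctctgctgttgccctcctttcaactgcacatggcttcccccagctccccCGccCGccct
Gm36843: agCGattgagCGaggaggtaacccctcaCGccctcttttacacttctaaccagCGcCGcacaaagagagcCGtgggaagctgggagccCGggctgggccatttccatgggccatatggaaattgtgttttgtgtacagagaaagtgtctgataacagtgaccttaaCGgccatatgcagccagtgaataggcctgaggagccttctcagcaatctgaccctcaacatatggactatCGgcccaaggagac

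The tiles of the 4 starts in canyons were almost free of methylation in both groups. The tile of the Irx2 start was at 1.11% in KO and 0.801% in WT, that of Irx3 at 0.646% and 0.769%, that of Irx4 at 1.58% and 2.62%, and that of Crnde at 0.499% and 0.690%. None of these 4 tiles was called in limma, which tested all tiles of the genome together. A call also needed a minimum difference, stated below, which is larger than the WT level of each of these 4 tiles. They could therefore not be called lower, and the lack of a call does not set them apart from the starts between Irx3 and Irx5. The tile of the Gm36843 start had 30.9, 21.0 and 27.6% in the 3 KO samples and 81.7, 80.4 and 84.6% in the 3 WT samples (limma, Benjamini-Hochberg adjusted p = 1.06e-08). The 2 tiles of the Gm36670 start averaged 14.6% ± 11.0 in KO and 52.2% ± 4.91 in WT. The groups did not overlap at either of these starts, and every KO sample was the lower one. The printed start sequence of Gm36843 holds more CpGs than the median promoter and that of Gm36670 holds fewer. Other starts with few CpGs between the same genes went both ways. A further start of Gm36843 (chr8:92005534-92005783, 0 CpGs) had 64.9% in KO against 83.7% in WT and was called lower (limma adjusted p = 0.00135). That of Gm28516 (4 CpGs) had 18.6% against 40.9% and was called lower too (limma adjusted p = 1.14e-05). The start of LOC115486949 (2 CpGs) had 13.5% in KO against 20.4% in WT and was not called. Nor were those of Gm41001 and Gm30154 (3 CpGs each) on chromosome 13.

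A tile was called when its adjusted p in limma was under 0.05 and its difference was at least 10 points. Over the whole genome, 16.2% of tiles were called lower in KO and 0.0796% higher, and the average tile was at 63.7% ± 0.140 in KO against 69.0% ± 0.451 in WT. The clusters lay on either side of that background. On chromosome 8, 236 of 932 tiles (25.3%) were called lower and 2 higher. On chromosome 13, 50 of 1232 tiles (4.06%) were called lower and 0 higher, with 5 tiles higher at an unadjusted p under 0.05. When every sample was centred on its median tile, which removes a shift of -4.89 points between the groups, the calls became 108 lower and 5 higher on chromosome 8 and 12 lower and 7 higher on chromosome 13. Tiles whose groups did not overlap, with KO lower, made up 41.5% of the window on chromosome 8 and 16.1% of that on chromosome 13, against 31.6% of the genome. Scaling all samples to the same mean gave 115 lower and 10 higher on chromosome 8 and 15 and 7 on chromosome 13, and leaving out WT replicate 1 gave 33 lower on chromosome 13.

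**Figure D1:**
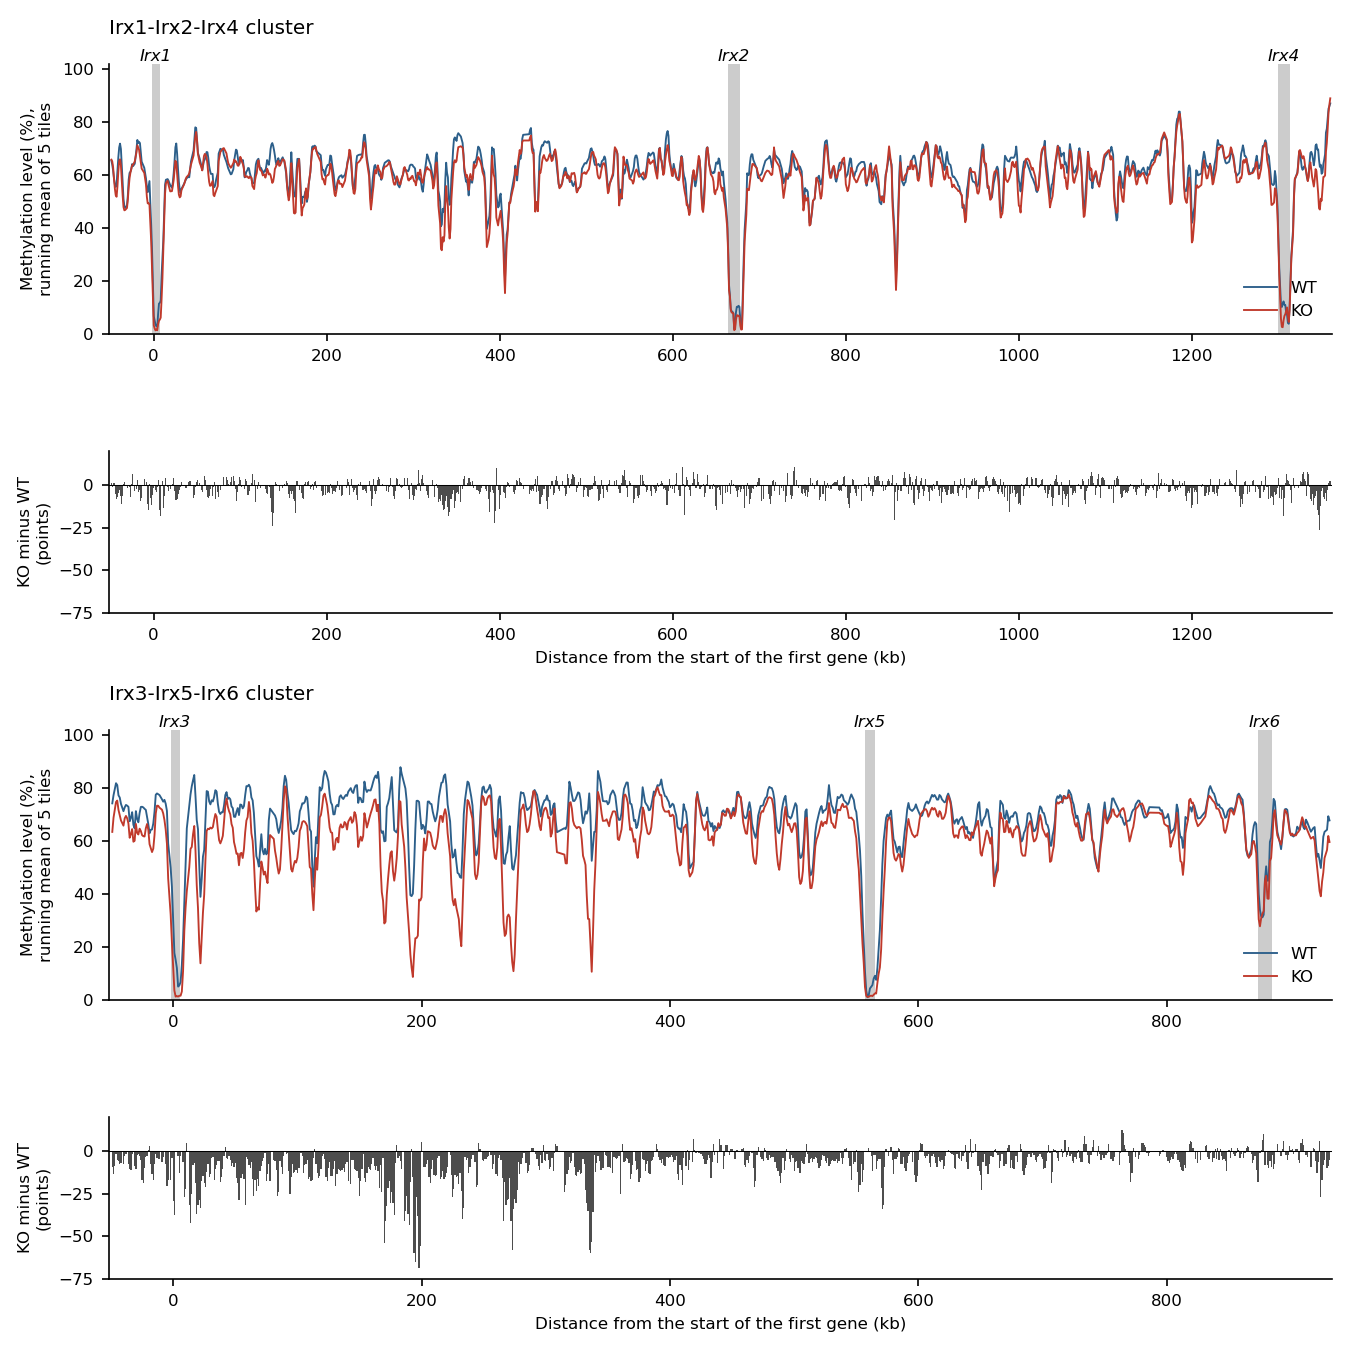
Methylation level (running mean of 5 tiles, group means of 3 samples) and KO minus WT difference per 1 kb tile, in points, along the 2 clusters. The x axis is the distance from the start of the first gene in kb, and the grey bands mark the Irx genes. Both groups drop towards 0 at Irx1, Irx2, Irx4, Irx3 and Irx5, and the largest differences lie between Irx3 and Irx5.

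The tiles were divided into canyon cores (a mean level under 10% over all 6 samples, in runs of at least 3 tiles), edges within 5 kb of a core, sequence between (inside the outermost gene ends and farther than 5 kb from a core) and flanks outside the genes. On chromosome 8 the edges stood apart in absolute points. The 19 edge tiles averaged 32.1, 31.9 and 29.7% in the KO samples and 49.9, 49.5 and 51.2% in the WT samples, a difference of -19.0 points. The 806 tiles between averaged 61.8% ± 0.155 in KO against 69.8% ± 0.686 in WT (difference -8.02 points). The 19 core tiles averaged 1.65% ± 0.196 in KO against 5.003% ± 0.742 in WT (difference -3.36 points). Measured against the WT level the order was another, with differences of -67.1% in cores, -37.8% in edges and -11.5% between. In each class no KO sample reached the lowest WT sample. After centring and after scaling, the difference on chromosome 8 was -14.1 and -15.7 points in edges and -3.13 and -2.70 between.

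On chromosome 13 the same classes differed less. The 31 edge tiles averaged 39.4, 37.3 and 36.2% in the KO samples and 44.3, 43.0 and 41.7% in the WT samples, a difference of -5.36 points, which became -0.470 after centring and -2.10 after scaling (exact permutation p = 0.80 and 0.20). The 1091 tiles between averaged 59.6% ± 0.191 and 61.7% ± 0.510, a difference of -2.09 points or -3.39% of the WT level. The 35 core tiles averaged 3.02% ± 0.218 and 4.78% ± 0.272, a difference of -1.77 points or -36.9% of the WT level. Called lower were 39 of the tiles between (3.57%), 5 of the edge tiles (16.1%) and 0 of the core tiles, of which 9 were lower and 1 higher at an adjusted p under 0.05 in limma with no minimum size. On chromosome 8 the called tiles were 208 between (25.8%), 14 in edges (73.7%) and 3 in cores (15.8%). A core tile averages under 10%, so it can lose 10 points only where WT lies above that level, and the shares called in cores and edges are not compared. Over the genome, 44.9% of edge tiles and 3.62% of core tiles were called lower, and the mean differences were -12.8 points in edges and -1.85 points in cores.

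The question of cores against sequence between was put to a test of that difference itself, over samples. The difference in the sequence between minus that in the cores was -4.66 points on chromosome 8 and -0.329 points on chromosome 13 (exact permutation p = 0.10 and 0.20, two-sided, where 0.10 is the smallest that 3 against 3 samples can give). The cores on chromosome 8 were at 5.003% in WT and could not fall by more points than that. The sequence between differed there by -8.02 points, so the floor fixed the sign of -4.66. That value therefore cannot compare the 2 classes. The difference in the sequence between minus that in the edges was 11.0 points on chromosome 8 and 3.27 on chromosome 13 (exact permutation p = 0.10 for each), so the edges differed more in points. Between the clusters, the difference on chromosome 8 minus that on chromosome 13 was -1.59 points in cores, -13.6 in edges and -5.93 in the sequence between, again at the exact permutation p of 0.10. Of 31 exact permutation tests of class means, contrasts, intervals and tile counts, 29 reached that smallest p, which is 0.107 after Benjamini-Hochberg adjustment, so no class passed a threshold of 0.05. The classes use levels of the same samples: with cores chosen on the WT samples alone, the core differences were -1.89 on chromosome 8 and -1.10 on chromosome 13, and with a core limit of 20% they were -5.70 and -2.75, which left sequence between minus cores at -1.86 and 0.688. Scaling turned sequence between minus cores to 0.387 on chromosome 8 and 4.27 on chromosome 13. Centring turned the core and between differences on chromosome 13 to 3.13 and 2.80, and the core difference on chromosome 8 to 1.54, and scaling turned the between difference on chromosome 13 to 2.82. The cores on chromosome 13 were at 4.78% in WT, under the shift of -4.89 points in size, so centring fixed the sign of 3.13. Those on chromosome 8 had almost no room either.

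**Figure D2:**
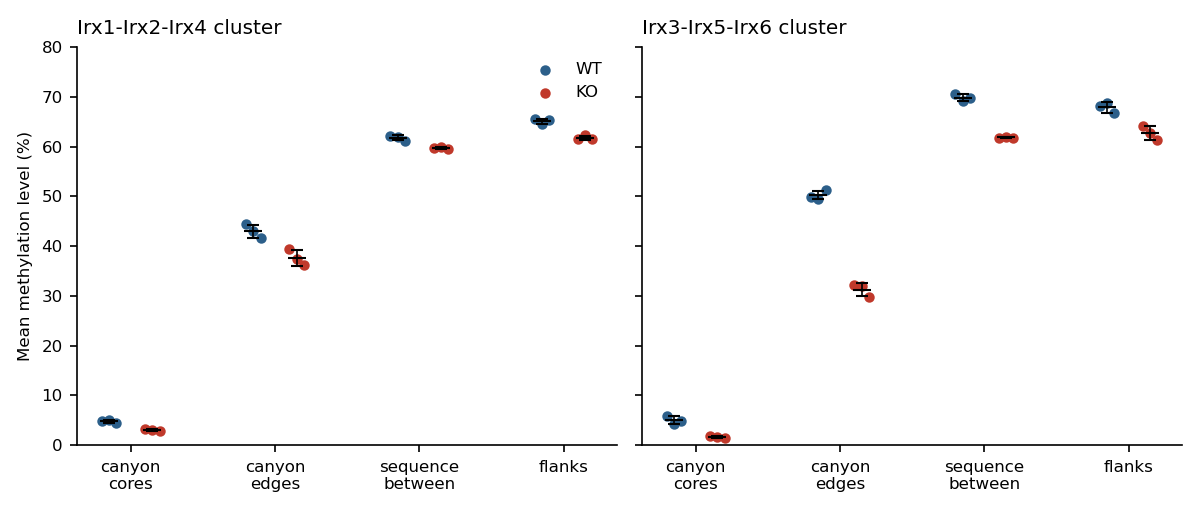
Mean methylation level (percent) of canyon cores, edges, sequence between and flanks in each sample, for the 2 clusters. Points are samples, and the bars give the mean and SD of 3 samples. On chromosome 8 (Irx3-Irx5-Irx6) the edges averaged 31.2% in KO and 50.2% in WT, while on chromosome 13 (Irx1-Irx2-Irx4) they averaged 37.6% and 43.0%.

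In all, 6 canyons lay over or beside 5 of the 6 genes. Irx3, whose start lies in the canyon on chromosome 8 from 91800001 to 91807000, had a canyon level of 1.36, 0.847 and 0.945% in the KO samples and 2.90, 2.71 and 3.76% in the WT samples (difference -2.07 points, limma adjusted p over all canyons 0.00596). The Irx5 canyon (chromosome 8, 92354001 to 92367000) has 13 tiles, the most of the 6, and also holds the start of Crnde. It was at 2.08, 2.002 and 1.69% in KO and 7.11, 5.04 and 5.46% in WT (difference -3.95, adjusted p = 0.00193). Its tiles from 92354001, 92361001 and 92364001 were at 14.4, 13.8 and 14.5% in WT and at 3.19, 2.08 and 3.93% in KO. They lay above the core limit in WT and entered the canyon only through KO. The extent, difference and p of this canyon are therefore partly set by that choice. At Irx3 and Irx5 every KO sample was below every WT sample, and the level in KO was near the floor of the scale.

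The 4 canyons on chromosome 13 differed by -1.32 to -2.34 points. Those of Irx1 and Irx4 also held tiles above the core limit in WT, such as 12.5% at 71956001 and 11.7% at 73261001. The Irx1 canyon (71956001 to 71965000) averaged 2.63% ± 0.502 in KO and 4.97% ± 1.47 in WT (difference -2.34, limma adjusted p = 0.0384), and this call was lost when any of the 3 KO samples or WT replicate 1 or 2 was left out, and after scaling (difference -2.03, adjusted p = 0.0681). Irx2 had 2 canyons. The canyon over its start (72623001 to 72633000) was at 2.43% in KO and 3.74% in WT (difference -1.32, adjusted p = 0.0620), and that beyond its right end (72635001 to 72641000) at 1.91% and 3.88% (difference -1.97, adjusted p = 0.0258), a call lost without KO replicate 2, WT replicate 1 or WT replicate 2. The Irx4 canyon (73260001 to 73273000) averaged 4.42% ± 0.118 and 5.97% ± 0.809 (difference -1.55, adjusted p = 0.116). So 4 of the 6 canyons fell and 0 rose, where 42.7% of all 2493 canyons of the genome fell and 0.0401% rose. After centring all 6 differences were positive, from 0.944 points at Irx5 to 3.57 at the first Irx2 canyon, and 5 of the 6, those other than Irx5, passed as higher (limma adjusted p between 0.000282 and 0.0127). Centring removes a shift of -4.89 points. The Irx3 canyon (3.12% in WT) and both Irx2 canyons could not fall by that much, so their positive sign was fixed in advance. The Irx1 canyon, at 4.97% in WT, had almost no room either. After scaling, 3 of the 6 passed as lower.

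Irx6 had no canyon by the rule. A run of 2 tiles at its left end (92673001 to 92675000) was at 1.57% ± 0.183 in KO against 1.83% ± 0.405 in WT, and a single tile inside the gene (92678001 to 92679000) at 6.81% and 7.70%. The rest of the gene was methylated, so that the whole body averaged 44.9% ± 1.18 in KO and 45.3% ± 1.504 in WT. Both groups overlapped there, and limma did not call the difference of -0.360 points (adjusted p = 0.806).

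The edges separated the genes more than the cores did. The left edge of Irx3 had the largest difference of the 11. It was at 15.2, 14.2 and 16.7% in the KO samples and 36.8, 38.6 and 36.8% in the WT samples (difference -22.0, limma adjusted p over all edges 2.3e-07), and the right edge of Irx3 was at 47.4, 44.2 and 38.2% against 63.9, 61.6 and 61.5% (difference -19.0, adjusted p = 7.18e-06). The Irx5 left edge was at 39.4, 41.1 and 39.3% in KO and 55.7, 55.8 and 57.4% in WT (difference -16.3, adjusted p = 5.48e-06). Its right edge was at 32.1, 32.4 and 28.6% against 50.3, 49.2 and 54.6% (difference -20.3, adjusted p = 1.52e-06). In all 4 edges on chromosome 8 the KO samples lay together, well below the WT samples.

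On chromosome 13 only the Irx1 edges passed, with differences of -8.83 on the left (48.9% ± 2.58 in KO and 57.7% ± 2.30 in WT, limma adjusted p = 0.00283) and -9.04 on the right (13.1% ± 1.57 and 22.1% ± 3.16, adjusted p = 0.00221). The other 5 edges there, at Irx2 and Irx4, differed by -1.57 to -5.36 points with adjusted p between 0.0546 and 0.670. Of these, the right edges of both Irx2 canyons passed without WT replicate 3 (limma adjusted p = 0.0180 and 0.00825) and the left edge of Irx4 without WT replicate 2 (adjusted p = 0.0457). In sum 6 of 11 edges fell and 0 rose, against 77.8% lower and 0.0402% higher among all 4978 edges of the genome. Centring ended the call at both Irx1 edges (adjusted p = 0.162 and 0.128), and scaling ended that on the left (adjusted p = 0.111). Measured as edge minus canyon in the same sample, the edge fell more than the canyon at Irx3 (-18.4 points, limma adjusted p = 3.32e-09), Irx5 (-14.4, adjusted p = 2.48e-07) and Irx1 (-6.60, adjusted p = 0.00244), which is 3 of 6 canyons where 83% of the 2493 canyons of the genome passed. The Irx3 and Irx5 canyons had only 3.12% and 5.87% in WT and could not fall by more points than that, which limits this test in points. Scaling ended this call at Irx1 (adjusted p = 0.0630), and the second Irx2 canyon gained it without WT replicate 3 (adjusted p = 0.0229). The medians of all canyons, all edges and all such differences in the genome were -1.45, -10.6 and -9.44 points.

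**Figure D3:**
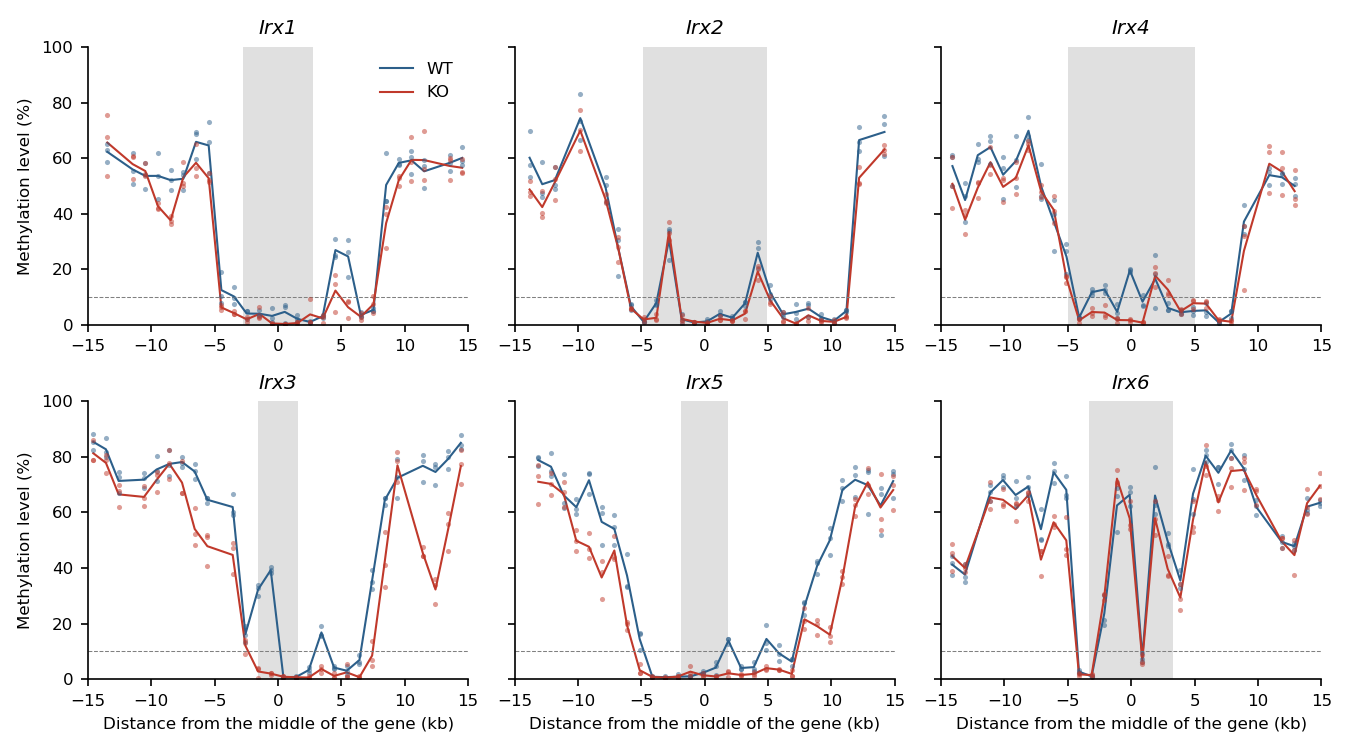
Methylation level (percent) of 1 kb tiles within 15 kb of the middle of each Irx gene. Lines are group means, points are the 3 samples of each group, the grey band is the gene and the dashed line is the 10% limit of a core. The low part is wider in KO at Irx3 and Irx5, and at Irx6 the lines of the groups cross inside the gene.

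The width of the low part also differed by gene. The longest run of tiles under 10% over Irx3 was 10 tiles in each KO sample and 6 tiles in each WT sample, and that over Irx5 was 13 tiles in each KO sample and 8, 10 and 10 tiles in the WT samples. Over Irx1 it was 12, 13 and 11 tiles in KO and 8, 7 and 9 in WT. The groups did not overlap at these 3 genes. They overlapped at Irx2 (16, 16 and 9 in KO, 9, 16 and 9 in WT) and Irx4 (6 tiles in each KO sample, 9, 8 and 6 in WT), and Irx6 had 2 tiles in every sample. The Irx3 canyon reached over more of the gene in KO: the tile from 91799001 to 91800000 was at 2.08, 2.27 and 1.60% in KO and 38.2, 40.3 and 39.2% in WT. The body of Irx3, which is 2 tiles, averaged 1.41% ± 0.240 in KO and 19.96% ± 0.633 in WT (difference -18.6, limma adjusted p over all gene bodies 1.18e-05).

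Irx3 was the 1 of 6 Irx bodies called lower at an adjusted p under 0.05 and 5 points, and 0 were called higher, where 52.1% of all 18428 gene bodies were called lower and 0.136% higher. The Irx4 body was at 5.53% ± 0.264 in KO and 9.63% ± 1.42 in WT (difference -4.10, limma adjusted p = 0.00387), under the 5 points. Irx1, Irx2 and Irx5 bodies differed by -2.16, -1.74 and -0.797 points and did not pass. The Irx1 and Irx5 bodies were at 3.48% and 2.46% in WT and could not lose 5 points. The 1 of 6 is therefore not comparable with the share of all bodies. None of the 9 gene starts or ends tested was called in limma at 10 points in either direction, where 18.3% of those of all genes were lower and 0.0455% higher, and in WT they ranged from 0.848% at the left end of Irx5 to 50.4% at the right end of Irx6. Only the start of Irx4 and the right end of Irx6 were above 10% in WT. The rest had no room to lose 10 points, so 0 of 9 is not comparable with the share of all genes. With no minimum size, limma gave an adjusted p under 0.05 at 4 of the 9. These were the left end of Irx1 (difference -2.72), the start of Irx4 (7.64% in KO and 12.96% in WT), the right end of Irx5 (1.499% and 7.32%) and the right end of Irx6 (42.3% and 50.4%). The unadjusted p for a higher level was under 0.05 at 0 of the 9.

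Irx4 was the gene where tiles moved in both directions. In its left part, the tile from 73264001 to 73265000 was at 0.991, 2.20 and 1.71% in KO against 19.7, 20.2 and 18.8% in WT, and it was called lower (limma adjusted p = 2.72e-08). Core tiles beside it were at 4.59% and 11.7% (from 73261001) and at 0.753% and 8.30% (from 73265001). In its right part, the tile from 73267001 to 73268000 was at 11.3, 10.6 and 15.95% in KO and 5.17, 7.72 and 5.30% in WT (difference 6.56, adjusted p = 0.00614), under 10 points. This was the 1 core tile on chromosome 13 that was higher in KO at an adjusted p under 0.05.

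Between the genes, the clusters parted. The stretch from Irx3 to Irx5 (556 kb, 538 tiles) was at 59.0, 59.3 and 59.1% in the KO samples and 70.5, 68.9 and 69.6% in the WT samples, a difference of -10.6 points, and 201 of its tiles (37.4%) were called lower. The difference was -5.69 after centring and -5.38 after scaling. It holds 538 of the 932 tiles of its window, and its called tiles make up 85.2% of the called tiles there. Of its tiles, 35 lost 30 points or more, against 2 from Irx5 to Irx6 and 0 in each interval on chromosome 13. The share of tiles with such a loss over the genome was not counted. The neighbouring stretch from Irx5 to Irx6 (313 kb, 289 tiles) was at 63.5% ± 0.275 in KO and 67.3% ± 0.477 in WT, with 20 tiles (6.92%) lower and 2 higher. The difference between these neighbours, -6.80 points, had an exact permutation p of 0.10, the smallest possible. On chromosome 13, Irx1 to Irx2 (661 kb, 573 tiles) was at 58.7% ± 0.130 and 61.1% ± 0.721 with 29 tiles (5.06%) lower. Irx2 to Irx4 (625 kb, 542 tiles) was at 59.1% ± 0.414 and 61.1% ± 0.326 with 13 tiles (2.4%) lower. These intervals, and the pieces and low tiles described next, were marked out after the values were seen.

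Tested as stretches from canyon to canyon in a limma fit over the genome, Irx3 to Irx5 differed by -10.6 points (adjusted p = 4.84e-20), Irx1 to Irx2 by -2.26 (adjusted p = 1.44e-04) and Irx2 to Irx4 by -1.92 (adjusted p = 6.42e-04). All 3 fell, as did 99.8% of the 2250 stretches of the genome, whose median difference was -6.68 points. Of all stretches, 84.8% had a smaller loss than Irx3 to Irx5. Relative to the shift of the genome, the stretches on chromosome 13 turned to the opposite direction, with 2.63 and 2.98 points after centring and 2.64 and 3.01 after scaling.

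**Figure D4:**
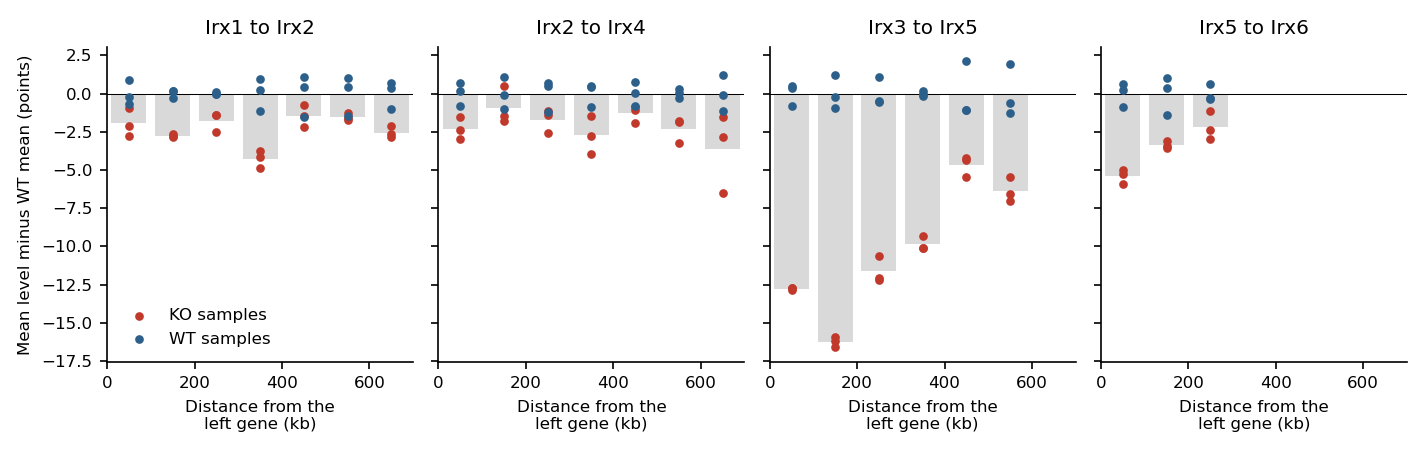
Difference from the WT mean (points) of each sample in successive pieces of 100 kb, counted from the left gene of each interval. Bars are the KO mean and points are samples. Between Irx3 and Irx5 the bars run from -12.8 and -16.2 beside Irx3 to -4.67 and -6.36 towards Irx5, and the KO samples lie apart from the WT samples in each piece.

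Within Irx3 to Irx5 the difference was uneven. Counted in pieces of 100 kb from Irx3, it was -12.8, -16.2, -11.6, -9.85, -4.67 and -6.36 points, and 51.5, 63.3, 42.4, 29, 12.4 and 14.8% of the tiles were called. In the piece from 100 to 200 kb, the KO samples were at 56.4, 56.0 and 56.7% and the WT samples at 73.8, 71.7 and 72.4%. The pieces of the chromosome 13 intervals ranged from -0.916 to -4.25 points. The piece with -4.25 points, at 300 to 400 kb from Irx1, had 12 of its 88 tiles called (13.6%), which is under the genome's share.

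The called tiles of chromosome 8 joined into 68 regions, of which 16 had 5 or more called tiles, and 15 of these lay between Irx3 and Irx5. The 50 called tiles of chromosome 13 made 32 regions of at most 4 tiles. The region from 91982001 to 91998000, over the long noncoding genes Gm36670 and Gm36843 whose starts are printed above, had 14 called tiles and averaged 35.7, 25.9 and 30.1% in KO and 69.8, 68.6 and 69.2% in WT (difference -38.6). A region with no gene of the RefSeq table, from 92063001 to 92078000, also had 14 called tiles, at 26.6, 26.6 and 25.2% in KO and 56.2, 54.9 and 54.6% in WT. A region of 8 called tiles without a gene, from 92130001 to 92139000, was at 34.5% ± 1.88 and 72.9% ± 2.01 (difference -38.4). In each of these regions the KO samples were all far below the WT samples.

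Regions nearer to the genes were called as well. Irx3os, the long noncoding RNA named for its place opposite Irx3, had 38 of its 70 overlapping tiles called lower. Its region with Gm39223 (91816001 to 91829000) was at 41.3% ± 0.438 in KO and 63.1% ± 2.81 in WT. The region at the Irx3 left edge (91793001 to 91800000), over Gm36380, Gm39222 and Irx3, was at 30.3% ± 2.42 and 54.5% ± 1.43. The region at the far end of the interval (92349001 to 92355000), over Crnde, was at 31.3% ± 1.75 and 48.4% ± 1.29. The start of Gm28516 lay in a region of 10 called tiles (92022001 to 92033000) at 28.5% ± 0.605 and 50.8% ± 1.70. The 1 region called higher, 92562001 to 92564000 between Irx5 and Irx6, was at 78.4% ± 6.15 in KO against 67.0% ± 2.07 in WT, and at most 1 of its 2 tiles was called when KO replicate 1, KO replicate 2 or any WT sample was left out.

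Some tiles that were methylated in WT were almost unmethylated in KO. The tile from 91996001 to 91997000 was at 11.2, 3.98 and 7.64% in KO and 72.6, 74.1 and 81.1% in WT (difference -68.3, limma adjusted p = 2.68e-10). The tile from 91993001 to 91994000 was at 7.38% ± 0.666 and 72.7% ± 2.83, and that from 92134001 to 92135000 at 2.71% ± 0.950 and 62.7% ± 2.54. On chromosome 8, 5 tiles had at least 50% in WT and under 10% in KO, all of them between Irx3 and Irx5, and 14 tiles had at least 30% in WT and under 10% in KO. Over the genome, 0.0638% of tiles met the first of these limits, and the share that met the second was not counted. On chromosome 13, 0 tiles met either, and no tile of either cluster went the other way. The largest losses on chromosome 13 were at 73306001 to 73307000 (38.1% ± 3.68 and 64.8% ± 3.59, limma adjusted p = 1.02e-04), 72095001 to 72096000 (difference -24.0) and 72352001 to 72353000 (difference -22.5).

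Short unmethylated spots outside the canyons lay inside several of these regions. Between Irx3 and Irx5, 4 single tiles with a mean under 10% had 7 to 10 called tiles within 5 kb, 32 of 40 in all. They were picked after their values were seen, as spots with at least 5 called tiles around them, and have no test as a group. The count of 32 is therefore set by that choice. In the genome as a whole, 46.5% of other tiles within 2 kb of a low tile were called lower, and 32.4% at 2 to 5 kb. At 189 kb beyond Irx3, the tile from 91990001 to 91991000 was at 3.85% in KO against 2.64% in WT, and the 10 tiles around it averaged 27.8% ± 5.32 in KO and 64.2% ± 1.30 in WT. At 166 kb, the tile was at 0.865% and 4.79% and its surroundings at 53.0% ± 2.17 and 77.1% ± 1.29. At 336 kb, the tile was at 0.369% and 2.87% and its surroundings at 49.8% ± 1.77 and 78.0% ± 1.23. The spot at 264 kb was itself called lower, at 0.262, 0.475 and 1.61% in KO and 21.8, 16.3 and 18.9% in WT, with surroundings of 45.0% ± 1.03 and 66.4% ± 0.902. This spot was over 10% in each WT sample, so it had a mean under 10% only through KO.

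Not every such spot was surrounded by losses. The tile from 91872001 to 91873000 had 4 of 9 tiles around it called (difference -12.0), and that from 92460001 to 92461000, between Irx5 and Irx6, had 0 of 10 (difference -3.88). Around the 2-tile run at Irx6, 2 of 10 tiles were called, with a difference of -5.73 points. On chromosome 13 there were 3 such spots with 5 tiles in all, and the sequence around them differed by -8.10, -3.44 and -6.94 points.

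**Figure D5:**
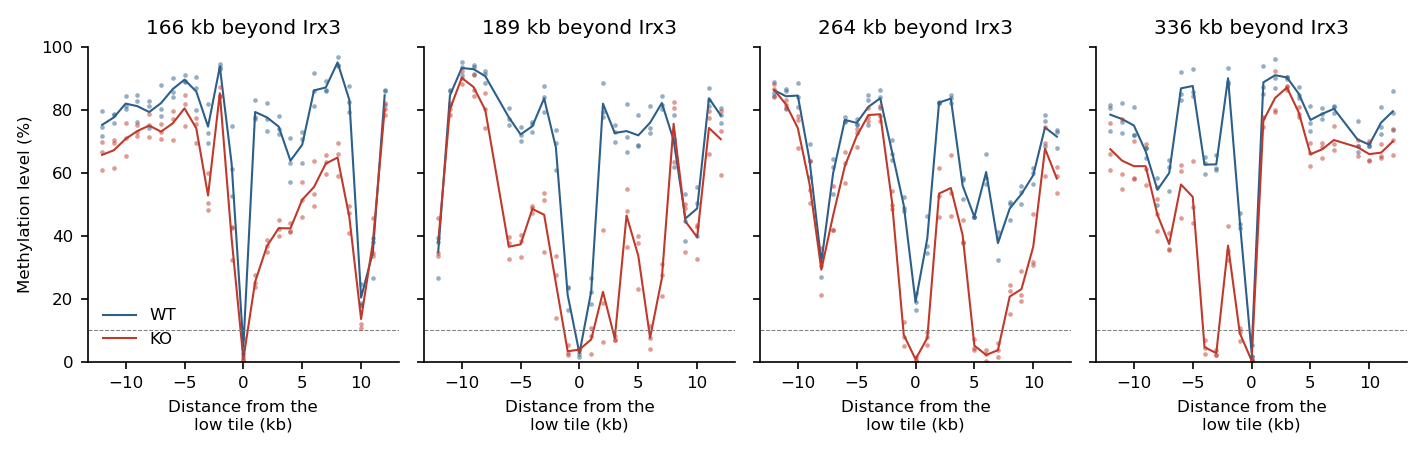
Methylation level (percent) of 1 kb tiles within 12 kb of 4 single tiles between Irx3 and Irx5 with a mean under 10% over all 6 samples. Lines are group means, points are the 3 samples of each group and the dashed line is 10%. In WT the low part is 1 or a few tiles wide with methylated sequence on either side, and in KO the sequence on at least 1 side is lower, as in the panel at 189 kb where the 10 tiles around the spot averaged 27.8% in KO and 64.2% in WT.

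All tiles of the windows with a mean of at least 10% over the 6 samples were also grouped by their distance from any tile under 10%. Some of these low tiles were low only through KO, such as the spot at 264 kb beyond Irx3. Distance was then partly measured from places that lost methylation in these same samples, which favours larger differences nearby. How much of the change with distance came from that choice was not tested. On chromosome 8, tiles within 2 kb of a low tile differed by -19.1 points (62.5% called), those at 2 to 5 kb by -18.2 (52.9%), those at 5 to 20 kb by -9.49 (32%) and those farther away by -5.71 (17.9%). The shares over the genome at these distances were 46.5, 32.4, 24.9 and 12.3%. On chromosome 13 the differences were -7.84, -3.02, -2.24 and -2.11 points, with 29.2, 3.85, 2.9 and 3.78% called. On chromosome 8 the share was above that of the genome at each distance, and on chromosome 13 below it. No test was made of these shares, since neighbouring tiles are not independent.

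Counts of tiles by level in each sample show the shift without any call. On chromosome 8 the number of tiles under 10% was 46, 49 and 48 in the KO samples and 23, 24 and 24 in the WT samples. Tiles from 10 to 50% numbered 151, 154 and 158 in KO and 81, 84 and 82 in WT, and tiles at 80% or more 77, 87 and 54 in KO and 225, 186 and 189 in WT. On chromosome 13, tiles under 10% numbered 47, 46 and 43 in KO and 39, 37 and 38 in WT. The groups did not overlap in any of these counts (exact permutation p = 0.10 for each), and on chromosome 13 the difference of 7.33 tiles under 10% became -1 after centring.

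Other genes of the TALE class were listed to set the Irx genes beside their relatives, such as the Meis genes, whose proteins bind DNA together with other homeodomain proteins. Over the 12 listed genes, 10 bodies were called lower and 0 higher (52.1% of all gene bodies were lower), with a median difference of -10.9 points, where the median of all gene bodies was -5.33. Meis1 was at 47.9% ± 1.10 in KO against 64.8% ± 0.762 in WT, and Meis2 at 56.4% ± 0.438 against 70.5% ± 1.12 (limma adjusted p of 2.11e-05 and 2.13e-05). Their bodies are many tiles long and mostly methylated, while 5 of the 6 Irx bodies were under 20% in WT. Of the 12 starts or ends, 1 was called lower (Pbx4, difference -10.6) and 0 higher, where 18.3% of those of all genes were lower, with a median difference of -3.03 against -4.63 over all genes. Some of the 12, such as Meis2 (0.389% in WT), were under 10% in WT and could not lose 10 points. For a listed gene without a known start, the end with the lower level was used, while these values over all genes count both ends. The Irx body median was -1.95 points.

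Markers of cell types were read at gene starts to set the levels beside the label of the samples. Where no start was known, the end with the lower level was read, while the share of all genes called counts both ends. In WT, 6 of 10 endothelial markers were under 20% (median 15.7%, range 2.43 to 26.5%), against 0 of 8 leukocyte, 2 of 8 epithelial and 3 of 8 mesenchymal markers, and 23.2% of all genes. Mesenchymal markers moved with the genotype: 6 of 8 were called lower in KO and 0 higher, where 18.3% of the starts or ends of all genes were lower, with a range of 1.39 to 60.0% in WT and 0.759 to 47.9% in KO. Tcf21, a mesenchymal transcription factor, was at 3.55, 0.613 and 0.948% in KO and 46.5, 40.2 and 47.4% in WT. Of the leukocyte, epithelial and endothelial lists, 2, 3 and 1 were called lower. The part of other cells in the differences at the Irx clusters was not tested. Whether the allele was deleted in each KO sample was not checked here, since a methylation level does not show it.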

How the data were processed

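Per the labels' protocols, tagmentation-based whole-genome bisulfite sequencing used 30 ng of DNA and 3 libraries per sample, read as paired ends of 100 bases. The submitters' processing notes name BWA 0.7.8 and the mm10 build. Per the file headers, the deposited table gives each sample's methylation level as a fraction in tiles of 1 kb. Which caller, smoothing or coverage filter the authors used is not given in the sources used here. Read counts are not part of the table, so samples could not be weighted by depth, and no counting interval or floor is given.

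Fractions were multiplied to percent. Groups came from the genotype in the labels, which name no batch. limma 3.58.1 (R 4.3.3, variance trend on the mean level) was fitted to all tiles, and to all canyons, edges, stretches, gene starts or ends and gene bodies, each with Benjamini-Hochberg adjustment over all features of its kind. Tiles and gene starts needed 10 points, bodies 5 points. Starts or ends were tiles overlapping 1000 bp on either side of the start in the RefSeq promoter table, or of each gene end for Irx1, Irx5 and Irx6, which are not in that table. Class means were compared with two-sided exact permutation tests. Canyon runs allowed gaps of 1 kb. A total of 179 kb of the chromosome 13 window and 50.4 kb of that on chromosome 8 held no tile. Exons, introns and untranslated regions were not analysed here.

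The members, lists and tests were chosen with earlier results of these data known. The genes named were the Irx genes, genes under called regions, regions of at least 5 called tiles and the 3 tiles with the largest loss in each cluster. A gene these rules picked is not reported here. The main fit did not pair samples by replicate number. Deviations of same-numbered samples correlated at r = 0.00563, -0.00321 and 0.0110 across tiles. These values show no shared effect across tiles, and they cannot exclude that same-numbered samples were paired. The fit was tested on simulated data. Alternatives were centring, scaling, a replicate block, other limits for calls, cores and edges, and leaving out each sample. Tables and plots were made in Python 3.11.15 (pandas 2.3.3, numpy 2.4.6, matplotlib 3.10.9).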

Additional observations from a re-analysis of the deposited data

How the results depend on the processing

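Tiles called lower on chromosome 13 numbered 12 centred, 15 scaled and 6 at a minimum of 20 points, and 33 to 41 with a sample left out (33 without WT replicate 1); those called higher numbered 7 centred, 7 scaled, 1 at a minimum of 5 points and 0 to 3 with a sample left out (3 without KO replicate 1). On chromosome 8, tiles called lower numbered 108 centred, 115 scaled, 77 at 20 points and 177 to 216 with a sample left out, and tiles called higher 5, 10, 0 and 0 to 2, with 1 without a variance trend. Centring turned the core difference to 3.13 on chromosome 13 and 1.54 on chromosome 8, the difference between genes on chromosome 13 to 2.80 (2.82 scaled) and the excess of tiles under 10% there to -1. Scaling turned the between minus core difference to 4.27 on chromosome 13 and 0.387 on chromosome 8, and a core limit of 20% turned that on chromosome 13 to 0.688. Canyons called lower numbered 0 of 6 centred (5 were then called higher), 3 scaled and 2 to 4 with a sample left out (2 without KO replicate 2, WT replicate 1 or WT replicate 2). Centred, the Irx1, first Irx2, second Irx2, Irx4, Irx3 and Irx5 canyons differed by 2.55, 3.57, 2.92, 3.34, 2.82 and 0.944 points, and the Irx2 start and Irx6 body by 4.87 and 4.53 (limma adjusted p = 0.000474 and 0.0199). Edges called lower numbered 4 of 11 centred, 5 scaled and 6 to 8 with a sample left out (8 without WT replicate 3). Stretches called lower numbered 1 of 3 both centred and scaled; Irx1 to Irx2 was 2.63 and 2.64 and Irx2 to Irx4 2.98 and 3.01. Centring removes the same -4.89 points from the difference of every tile, and the Irx3 canyon has a WT level of only 3.12%. The first and second Irx2 canyons, the cores on chromosome 13 and the Irx2 start were at 3.74, 3.88, 4.78 and 1.33% in WT. None of these could lose as many points as centring removes, so their positive sign after centring was fixed in advance. For the other settings the cause was not tested. With the replicate block, 48 tiles on chromosome 13 and 236 on chromosome 8 were called lower, against 50 and 236, of which 46 and 229 were the same tiles, and the counts of canyons (4), edges (6) and stretches (3) called lower were as without it. Depth is unknown, so the precision of single tiles rests on 3 samples a group.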
